A study of Mus musculus with 2 samples.

Results

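The genes described here supply the building blocks of DNA. They are the ribonucleotide reductase genes Rrm1, Rrm2 and Rrm2b, the purine nucleoside phosphorylase genes Pnp and Pnp2, the thymidine and deoxycytidine kinase genes Tk1 and Dck, the thymidylate synthase gene Tyms and the dNTP hydrolase gene Samhd1. They are 9 named members of the 55414 genes in the deposited tables, chosen by function with earlier results of these libraries in view, and Pnp2 was chosen for its low value after Adriamycin. The question is how the transcripts of this enzyme group differed between untreated stem cells and cells given the drug. RNA-seq reads per gene came from the wild-type mouse embryonic stem cell line R1E, a pluripotent line kept in serum medium with leukemia inhibitory factor. The untreated library is labelled 0 h, and the other came from cells held for 8 h in 0.5 µM Adriamycin (doxorubicin, which traps topoisomerase II on cut DNA). There was 1 library per condition and no untreated library at 8 h, so drug, time and culture cannot be told apart and no test was possible.

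The libraries held 41820999 untreated and 38561292 Adriamycin reads. Levels are given in CPM, the reads of a gene relative to the TMM-scaled library total, and a gene is called measured when its 2 CPM values average 1 or more, which held for 14871 genes and for all 9 members. A log2 ratio is Adriamycin over untreated. Its 95% interval covers counting error only, and it was computed on counts divided by 2 because mates of a read pair appear to have been counted separately. In bulk RNA, fewer cells of a type and less RNA per cell cannot be told apart. Of 10 stem cell markers all had reads in both libraries, with summed levels of 6660 CPM untreated and 3619 CPM after Adriamycin. Of the 10, 6 were at least 2-fold lower (4 with total counts), beside 6.95% of all measured genes with TMM. The fibroblast markers, listed because feeder cells could carry them, summed to 1209 and 944.0 CPM, most of it Fn1 (45827 and 31702 reads). Of 8 measured fibroblast markers 4 were at least 2-fold higher (5 with total counts) and 0 lower, beside 17.0% and 6.95% of all measured genes. Of the 4, Col6a1 was measured through the Adriamycin library alone and so had to be higher there. The median log2 ratio of the 8 was 1.26, and the part of these differences in the results below was not tested. Of the 12 fibroblast markers listed, 4 (Col3a1, Postn, Lum and Dcn) had 0 reads in both libraries. Col1a1 had 214 and 1295 reads, Fbln2 247 and 2177, Bgn 115 and 371 and Col6a1 7 and 107. Besides Fn1, those under 2-fold with TMM were Col5a1 (1136 and 2115 reads, log2 ratio 0.87), Col1a2 (59 and 62, 0.04) and Thy1 (484 and 448, -0.14).

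DNA synthesis needs the 4 deoxynucleoside triphosphates in balanced amounts. Ribonucleotide reductase makes them from ribonucleotides. Its large subunit, Rrm1, carries the active site and works with a small radical-bearing subunit, which is Rrm2 in cycling cells or Rrm2b, a p53-induced gene in human cells. Tyms makes the thymidine nucleotide, Tk1 and Dck return free deoxynucleosides to the pool, and Samhd1 breaks surplus dNTPs down. Purine nucleoside phosphorylase splits inosine and guanosine and their deoxy forms into base and sugar phosphate, and its loss in humans harms T cells.

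Pnp and Pnp2 are neighbouring near-copies, so their sequences are shown first, because they bear on how far reads can tell these genes apart. Their coding sequences (GENCODE M21 transcripts, GRCm38) are 870 and 918 bases long. Over 868 aligned bases they were 98.2% identical, with 16 differences and a longest identical stretch of 292 bases. The gap-free 120-base stretch with the most differences, coding bases 690 to 809 of Pnp and 735 to 854 of Pnp2, has 4 of them, marked in capitals.
Pnp: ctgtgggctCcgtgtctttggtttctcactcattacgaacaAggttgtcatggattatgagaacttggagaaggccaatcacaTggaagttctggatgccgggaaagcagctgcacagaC
Pnp2: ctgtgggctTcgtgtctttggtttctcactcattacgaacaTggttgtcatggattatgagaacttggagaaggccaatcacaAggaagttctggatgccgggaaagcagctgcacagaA
Of the 100-base words in the annotated Pnp2 transcripts, 15.0% (223 of 1488) also occurred in transcripts of other genes, and of the 50-base words 28.5% did. For Pnp the shares were 17.1% and 22.0%. The count tables placed Pnp at chromosome 14, 51168539 to 51202694 (GRCm39, plus strand), and Pnp2 inside that span, at 51193449 to 51202206. Of the 10 exon blocks of Pnp, 8 lie before Pnp2 and 2, with 143 bases, lie after it. Both genes also share exon bases on the same strand with Gm49342, 718 for Pnp and 32 for Pnp2. Reads that overlapped several genes were not counted, and Gm49342 had 0 reads in both libraries.

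The 250 bases before the start of Rrm1, Rrm2, Tk1 and Dck (RefSeq, GRCm38.p6) are shown because both the reductase subunits and the salvage kinases moved apart between the libraries. Capitals mark CCAAT boxes (CCAAT), GC boxes (GGGCGG) and the CHR element (TTTGAA) on either strand. The windows are chr7:102441445-102441694 (plus strand), chr12:24708004-24708253 (plus), chr11:117826015-117826264 (minus) and chr5:88764763-88765012 (plus).
Rrm1: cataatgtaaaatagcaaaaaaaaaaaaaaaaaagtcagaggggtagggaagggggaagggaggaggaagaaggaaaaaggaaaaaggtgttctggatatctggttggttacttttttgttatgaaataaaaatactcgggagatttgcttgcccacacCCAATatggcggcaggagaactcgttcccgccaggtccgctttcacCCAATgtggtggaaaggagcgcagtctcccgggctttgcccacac
Rrm2: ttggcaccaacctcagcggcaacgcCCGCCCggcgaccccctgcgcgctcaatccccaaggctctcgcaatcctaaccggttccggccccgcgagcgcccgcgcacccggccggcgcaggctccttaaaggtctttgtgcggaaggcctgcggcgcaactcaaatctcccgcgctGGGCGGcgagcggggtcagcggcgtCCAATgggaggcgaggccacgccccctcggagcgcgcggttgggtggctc
Tk1: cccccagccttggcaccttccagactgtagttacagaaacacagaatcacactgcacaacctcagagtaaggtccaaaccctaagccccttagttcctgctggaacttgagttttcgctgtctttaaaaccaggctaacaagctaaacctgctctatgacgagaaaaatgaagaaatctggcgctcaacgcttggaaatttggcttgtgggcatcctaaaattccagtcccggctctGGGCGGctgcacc
Dck: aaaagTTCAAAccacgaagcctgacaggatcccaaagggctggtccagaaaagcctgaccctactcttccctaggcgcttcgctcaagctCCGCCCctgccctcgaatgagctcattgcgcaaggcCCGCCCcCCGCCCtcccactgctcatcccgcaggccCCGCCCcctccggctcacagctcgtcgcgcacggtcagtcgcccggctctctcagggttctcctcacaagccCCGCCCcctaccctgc
Rrm1 has 2 CCAAT boxes and no GC box, and Rrm2 has 1 CCAAT box and 2 GC boxes. Tk1 has 1 GC box, while Dck has 5, a number reached by 1.99% of 27025 promoters. RefSeq windows were found for 7 members, and not for Rrm2b and Pnp2. Of the 7, 6 hold a GC box and 3 a CCAAT box, letters found in 32.9% and 34.5% of all promoters. The E2F motifs TTTCCCGC and TTTGGCGC, searched on both strands, occur in 0 of the 7 windows and in 0.929% and 0.437% of all promoters. Other spellings of the E2F site, and bases after the start, were not searched. With such low background shares 0 of 7 was likely for any genes, so absence of E2F sites is not read from it. A single p53 consensus repeat, not the full element made of a pair of them, was matched in 1 of the 7 windows, that of Tyms, and in 7.18% of all promoters, and the CHR letters in 2 (Pnp and Dck) against 16.3%. No motif here overlaps another in the printed windows, and a match is a description of letters only.

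With a threshold of 2-fold, 0 of the 9 members were called higher after Adriamycin and 1, Pnp2, was called lower. The same threshold called 17.0% of all measured genes higher and 6.95% lower, and since these values chose Pnp2, nothing is read from that comparison. The share of higher genes among all called ones was 71.0% for TMM, 80.2% for scaling by total counts and 61.6% for upper-quartile scaling. The members' median log2 ratio was -0.23, beside -0.03 for all measured genes. Only Rrm2, Rrm2b and Dck were above 0 with TMM scaling, and with total counts Tyms was too.

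**Figure D1:**
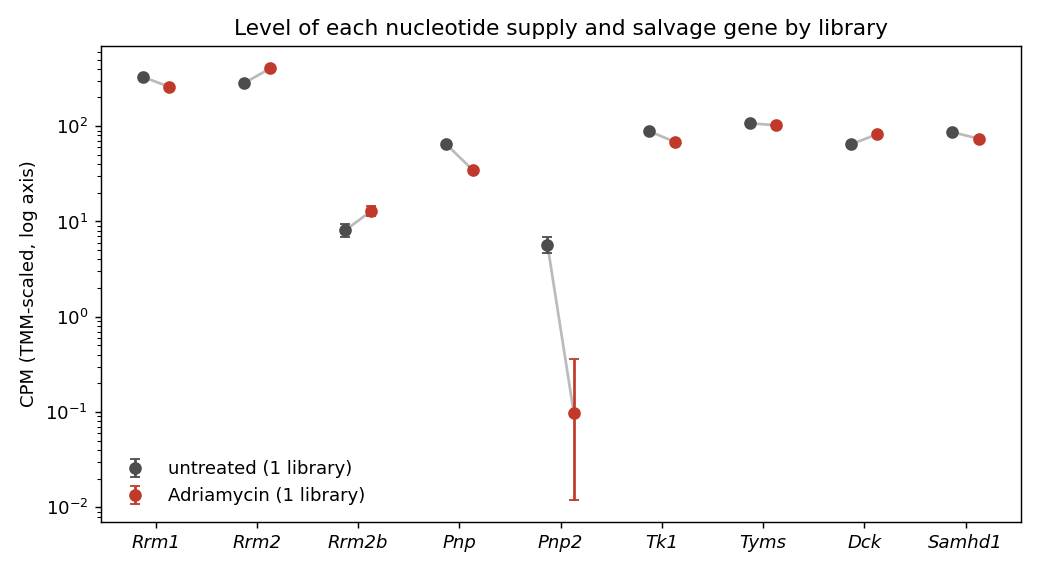
Level of each member in CPM (TMM-scaled, log axis) in the untreated library (grey) and the Adriamycin library (red), 1 library each. Bars are exact 95% Poisson intervals on counts divided by 2, hidden by the point where counts are high, and Pnp2 is the member whose points lie far apart, at 5.71 and 0.0986 CPM.

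The ribonucleotide reductase subunits did not move together. Rrm1 (chromosome 7, 102090902 to 102118978, GRCm39) had 13106 reads untreated and 10545 after Adriamycin, or 330 and 260.1 CPM. It was 1.27-fold lower, a log2 ratio of -0.34 (-0.39 to -0.29). Rrm2 (chromosome 12, 24758240 to 24764145) had 11180 and 16355 reads, or 281 and 403 CPM, and was 1.43-fold higher (0.52, 0.47 to 0.57). Thus the catalytic subunit transcript was lower and the small subunit transcript higher in the same library. Within a library, where scaling has no part, reads per exonic base of Rrm2 were 3.39 times those of Rrm1 untreated (3.31 to 3.48) and 6.16 times after Adriamycin (6.01 to 6.32), with intervals of such ratios on reads as counted. With the length of the first protein-coding transcript of each gene in place of summed exons they were 1.55 and 2.83 times. Under either length the ratio was 1.82-fold larger after Adriamycin, a log2 difference of 0.86 with a counting SE of 0.03. Of the 1177 other measured genes within 2-fold of the mean level of Rrm2, 88.6% had a lower ratio than it, against 48.5% of the 1434 genes near the level of Rrm1.

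Rrm2b, the alternative small subunit, was scarce in both libraries. Rrm2b (chromosome 15, 37924196 to 37961562, minus strand) had 320 and 523 reads, or 8.05 and 12.9 CPM. After Adriamycin it was higher by a log2 ratio of 0.68 (0.39 to 0.97), under the 2-fold rule. Of 3449 genes of similar level, 73.2% had a lower ratio, so this value is not at the edge of its range. Per exonic base, Rrm2 had 115 times the reads of Rrm2b untreated (103.0 to 129) and 103.1 times after Adriamycin (94.5 to 113), so the intervals overlapped. With the length of the first protein-coding transcript in place of summed exons these values were 72.7 and 65.0. Against Rrm1 the per-base ratio of Rrm2b was 0.0294 untreated and 0.0598 after Adriamycin, a 2.03-fold difference. Mdm2 and Cdkn1a, p53 targets that encode its ubiquitin ligase and the CDK inhibitor p21, were 7.16-fold and 3.10-fold higher in the same library. Exons of Rrm2b share 734 bases with the antisense gene Gm49085 (24 and 13 reads). Without strand information, reads that overlapped both genes could not be assigned and were counted for neither.

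**Figure D2:**
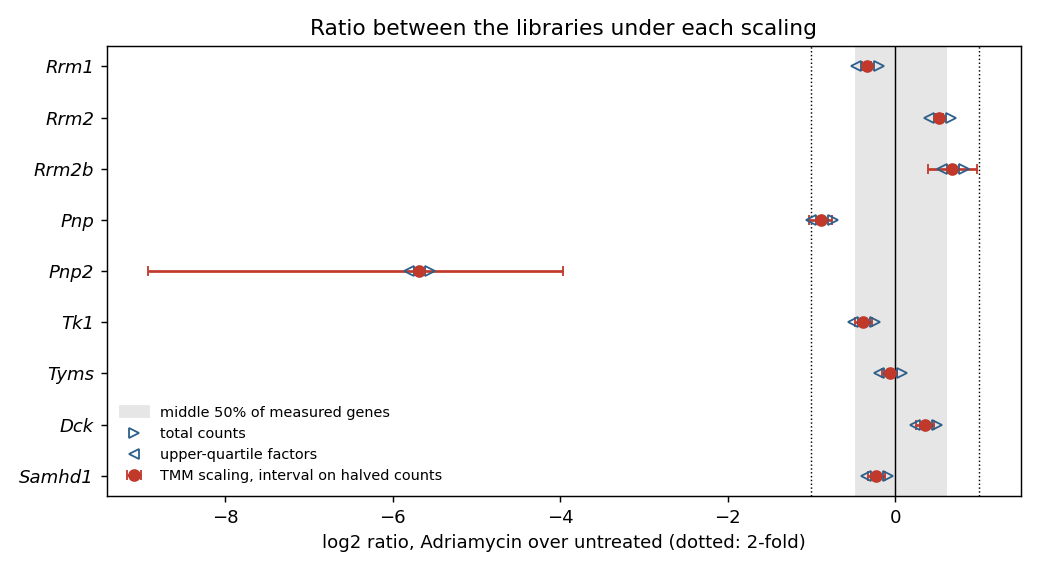
Log2 ratio of each member, Adriamycin over untreated, under TMM (red, 95% counting interval on counts divided by 2) and under scaling by total counts or upper quartiles (open triangles). The grey band holds the middle 50% of measured genes (-0.46 to 0.61) and dotted lines mark 2-fold. Pnp2 lies at -5.69, and each scaling shifts all members by nearly the same amount.

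Both purine nucleoside phosphorylase genes were lower, by very different amounts. Pnp2 had 227 reads untreated and 4 after Adriamycin, or 5.71 CPM (4.71 to 6.86) and 0.0986 CPM (0.0119 to 0.356, exact 95% Poisson intervals on counts divided by 2). It passed the filter on low values through the untreated library alone. The log2 ratio was -5.69 (-8.92 to -3.97), or 51.5-fold lower, the lowest of all 14871 measured genes, which is why it was chosen. Its 4 reads stand close to the 3 reads that a count of 0 allows if each read counts alone (0.0740 CPM in that library). If mates were counted separately, the 3 would be pairs, and the 4 reads would lie below that limit. Pnp, the main phosphorylase gene, had 2569 and 1414 reads, or 64.6 and 34.9 CPM. It was 1.85-fold lower (-0.89, -1.02 to -0.76), and with upper-quartile factors its log2 ratio of -1.01 passed 2-fold. Of 4768 measured genes of similar level 6.98% had a lower ratio than Pnp.

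Pnp2 held 8.12% of the reads of both phosphorylase genes untreated (227 of 2796, exact 95% interval on counts divided by 2 6.74 to 9.68) and 0.282% after Adriamycin (4 of 1418, 0.0342 to 1.02). Summed over both genes, a value that any exchange of assigned reads between the copies leaves as it is, reads went from 2796 to 1418. The sum was 2.01-fold lower, a log2 ratio of -1.01 (-1.14 to -0.88), so its interval spans the 2-fold line. With no multi-mapping option set, reads that the aligner reported at several places were not counted, so the sum lacks them too. How the aligner placed the other reads from near-identical stretches was not tested.

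The salvage kinase transcripts Tk1 and Dck went in opposite directions by small amounts. Tk2, another thymidine kinase gene, had 684 and 1205 reads and was higher (log2 ratio 0.79), so no direction is given for thymidine salvage as a whole. Tk1 (chromosome 11, 117706352 to 117716918, minus strand), a kinase gene of S phase cells, had 3540 and 2772 reads, or 89.0 and 68.4 CPM, and was 1.30-fold lower (-0.38, -0.48 to -0.28). Dck (chromosome 5, 88912855 to 88931140), whose product phosphorylates deoxycytidine and also deoxyadenosine and deoxyguanosine, had 2567 and 3350 reads, or 64.5 and 82.6 CPM. Dck was 1.28-fold higher (0.36, 0.25 to 0.46). Reads per exonic base of Tk1 over Dck stood at 1.00 untreated (0.953 to 1.06) and at 0.602 after Adriamycin (0.572 to 0.633). With transcript length these ratios were 2.95 and 1.77, so which kinase had more reads per base depends on the length used, while the values stayed 1.67-fold apart. Exons of Tk1 share 83 bases with Afmid, an antisense neighbour with 57 and 203 reads. The words of Dck transcripts were not found in any other annotated transcript, with 0 of 3730 words of 50 bases shared.

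Tyms (chromosome 5, 30263200 to 30278615, minus strand) had 4262 and 4152 reads, or 107 and 102.4 CPM. Its log2 ratio of -0.07 (-0.15 to 0.02) became 0.08 with total counts, so no direction is given. Samhd1 (chromosome 2, 156939453 to 156977185, minus strand), the hydrolase that lowers dNTP levels, had 3443 and 2999 reads, or 86.6 and 74.0 CPM. It was 1.17-fold lower (-0.23, -0.33 to -0.13), and -0.08 with total counts. Both lie inside the middle 50% of measured genes (-0.46 to 0.61), and so do Rrm1, Rrm2, Tk1 and Dck.

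Ordered by CPM per kilobase of summed exons (RPKM), Rrm2 was highest in both libraries (101.4 untreated, 146 after Adriamycin), followed by Rrm1 (29.9 and 23.6). Tyms (17.6), Tk1 (17.1), Dck (17.1) and Pnp (16.2) stood close together untreated, and Samhd1 had 9.46. With summed exons, untreated Tyms stood at 1.03 times Tk1 (0.983 to 1.08) and 1.03 times Dck (0.981 to 1.08), neither beyond counting error. With transcript length these ratios were 0.548 and 1.62, so the near-equality depends on the length used. Pnp2 (3.60) and Rrm2b (0.881) were lowest untreated, and after Adriamycin they changed places, at 0.0622 and 1.41. Dck moved from the fifth to the third place, at 21.9, above Tyms (16.8) and Tk1 (13.2). The summed exons include retained introns, and with transcript length instead the places in the middle differed. With that length Tk1 (61.8 RPKM untreated) stood above Tyms (33.9) and Samhd1 (22.0), and Rrm2 and Rrm1 were again the highest members. After Adriamycin Dck (26.8) was then below Tyms (32.4) and Tk1 (47.5).

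**Figure D3:**
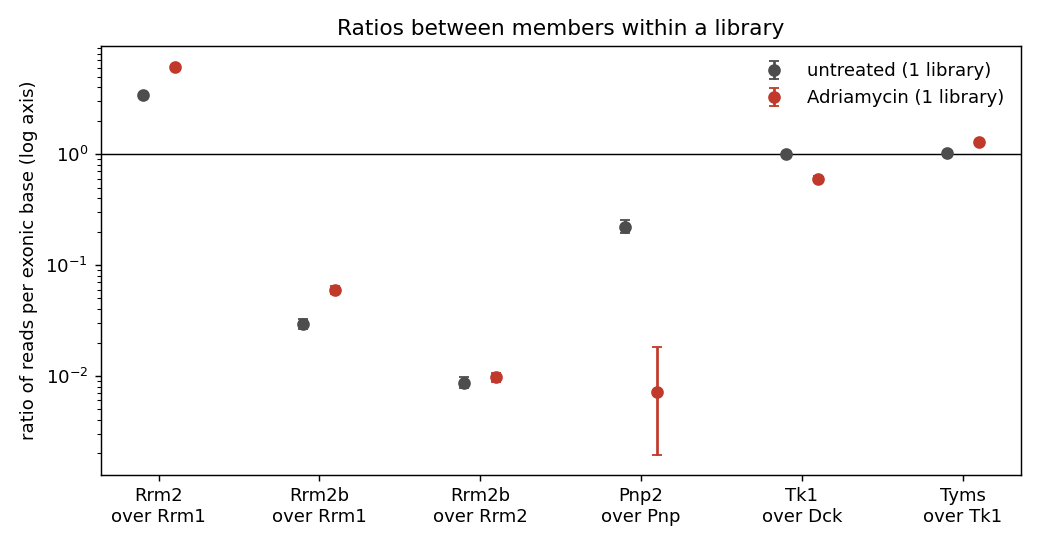
Ratio of reads per exonic base between members within a library (log axis), untreated in grey and Adriamycin in red, 1 library each, with exact 95% binomial counting intervals on the reads as counted. Rrm2 over Rrm1 is at 3.39 and 6.16, Pnp2 over Pnp at 0.222 and 0.00709, and Tk1 over Dck at 1.00 and 0.602, which become 2.95 and 1.77 with transcript length.

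Around the members, 8 lists with 100 other genes of nucleotide metabolism were counted, of which 86 were measured. Of these 14 (16.3%) were at least 2-fold higher and 6 (6.98%) at least 2-fold lower, near the 17.0% and 6.95% of all measured genes. The same background shares stand beside the count of each list that follows. With upper-quartile factors 10 were higher and 9 lower. Their median log2 ratio was -0.20.

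Of 15 purine synthesis genes 12 (80.0%) had log2 ratios below 0 under TMM scaling and 11 under total counts, where 51.6% and 43.3% of all measured genes did, and their median was -0.40. Past 2-fold, 1 (6.67%) was lower and 2 (13.3%) were higher, beside 6.95% and 17.0% of all measured genes. Ppat, the first committed enzyme of the route, had 9434 and 4019 reads and was 2.39-fold lower. Its exons share 272 bases with Paics on the opposite strand, a later enzyme of the same route (log2 ratio -0.65). Prps2, which makes the activated ribose PRPP, was 2.06-fold higher with 3259 and 6860 reads, and under 2-fold with upper-quartile factors. Adssl1, an adenylosuccinate synthase gene also known from muscle, was 3.10-fold higher on 194 and 615 reads.

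In pyrimidine synthesis 1 of 5 was higher and 0 were lower, beside 17.0% and 6.95% of all measured genes, and the median was -0.20. That member was Cad, the multifunctional enzyme that starts the route, with 34031 and 75864 reads, 856 and 1871 CPM, a 2.19-fold difference (log2 ratio 1.13). Among 11 thymidylate and folate genes 9 were below 0 with each scaling, with a median of -0.47, 1 higher and 0 lower. The higher gene, Mthfd2l, rested on 33 and 71 reads (2.09-fold), passed the filter through the Adriamycin library alone and was under 2-fold with upper-quartile factors, which called 0 higher and 2 lower. Among 10 salvage genes 0 were higher and 1 lower, with a median of 0.23. Uck2, a uridine and cytidine kinase, had 14242 and 4484 reads and was 3.24-fold lower.

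Of 12 measured catabolic genes 5 were higher and 0 lower, with a median of 0.77, beside 17.0% higher among all measured genes. Of the 5, Cda and Tymp passed the filter on low values through the Adriamycin library alone and so had to be higher there. With upper-quartile factors 1 was lower, the uridine phosphorylase gene Upp1 (34831 and 18960 reads, -0.91 with TMM). Ada, adenosine deaminase, which acts just before Pnp in purine breakdown, had 861 and 6287 reads, or 21.6 and 155 CPM. It was 7.16-fold higher (2.84, 2.69 to 2.99), so Ada was higher and Pnp lower in the same library. The AMP deaminase genes Ampd2 (3651 and 10262 reads) and Ampd3 (779 and 2857) were 2.76-fold and 3.60-fold higher. Exons of Ampd3 share 195 bases with Rnf141 on the opposite strand. Cda, cytidine deaminase, had 13 and 103 reads (7.52-fold) and Tymp, thymidine phosphorylase, 27 and 103 (3.69-fold). Tymp shares 535 exon bases with the antisense gene Ncaph2 (12503 and 9585 reads), so its low count is uncertain. The other 6 catabolic genes of the 18 listed were not measured.

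Of 11 measured nucleotidases and dNTP hydrolases 1 was higher and 1 lower (median 0.29). Nt5e, the cell surface enzyme CD73 that makes adenosine from AMP, had 1157 and 183 reads and was 6.43-fold lower. Nudt16 was 2.06-fold higher on 151 and 318 reads, and under 2-fold with upper-quartile factors. Of 14 nucleotide kinases 3 (21.4%) were higher and 0 lower, beside 17.0% and 6.95% of all measured genes. Their median of 0.02 was -0.10 with upper-quartile factors. The 3 were the adenylate kinase genes Ak1 (2843 and 8515 reads, 2.94-fold) and Ak3 (331 and 966, 2.86-fold), and the nucleoside diphosphate kinase gene Nme4 (2497 and 5289, 2.08-fold), which was under 2-fold with upper-quartile factors. Exons of Ak3 share 430 bases with Cdc37l1 on the opposite strand.

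Of 8 measured nucleoside transporters 3 were lower and 1 was higher (median -0.39), beside 6.95% lower and 17.0% higher among all measured genes. The lower ones take up nucleosides at the cell surface. Slc29a1 had 15857 and 7209 reads (2.24-fold lower), Slc29a2 had 996 and 474 (2.14-fold) and the sodium-coupled Slc28a1 had 2729 and 810 (3.43-fold). Slc29a4, a transporter of monoamines and adenosine, was 3.70-fold higher with 1763 and 6657 reads. With total counts 2 of the 8 were lower, without Slc29a2.

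**Figure D4:**
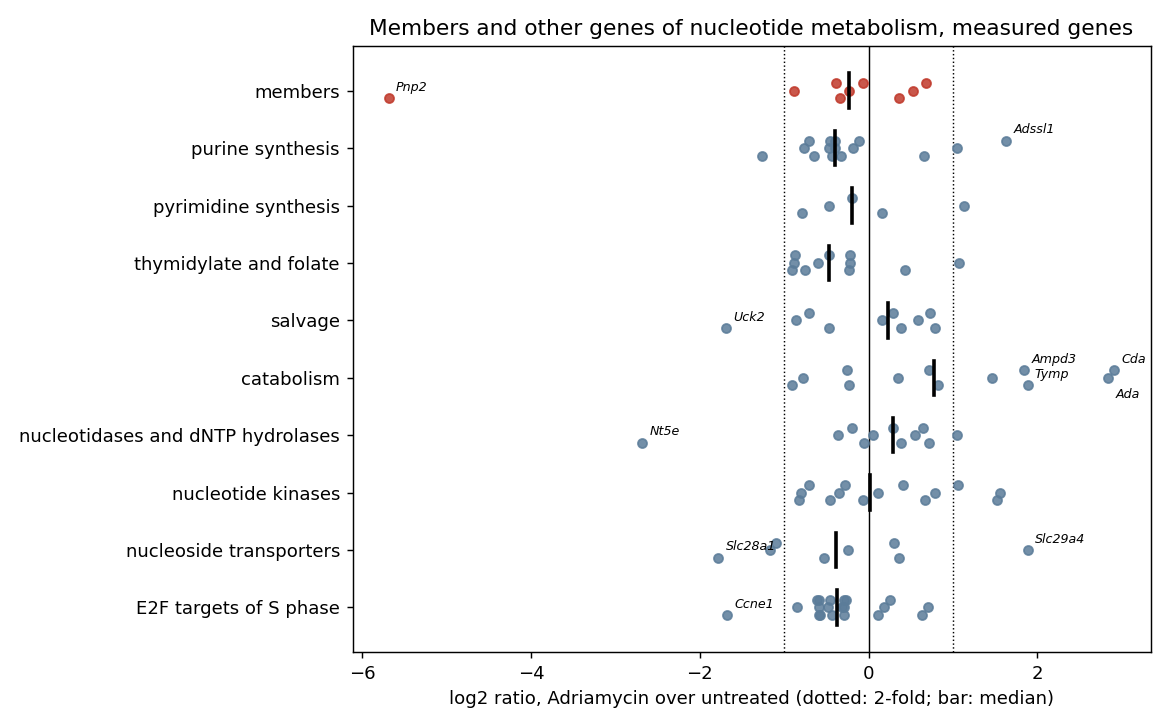
Log2 ratio, Adriamycin over untreated (TMM), of the 9 members (red) and of the measured genes of each other list (blue), 1 point per gene, with the list's median as a bar and dotted lines at 2-fold. Vertical offsets within a row only separate points. Pnp2 lies apart at -5.69, and the row of catabolic genes has its median at 0.77.

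Rrm2, Tk1 and Tyms are also known as E2F targets of S phase. In a list of 20 other such genes 0 were higher and 1 was lower, with a median of -0.38 and 15 below 0, beside 17.0% higher, 6.95% lower and 51.6% below 0 among all measured genes. The 1 lower gene was Ccne1, cyclin E1, with 14653 and 4671 reads. Tk1 at -0.38 stood at that median, with Rrm1 at -0.34 near it and Tyms at -0.07 above it. Rrm2 at 0.52 lay above 18 of the 20, below E2f1 (0.71) and Fen1 (0.63). The Fen1 value rested on 82 and 130 reads.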

How the data were processed

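Each library came as a deposited table of unnormalized read counts by gene. They were made, per the file headers, with featureCounts 2.0.3 from paired reads aligned at both ends, over exons of annotation release 105 on GRCm39, with no strand, multi-mapping or fragment option. Per the submitters' processing notes, HISAT2 2.0.4 and Trim Galore 0.3.4 were among the tools, and featureCounts had version 1.6.0 and the builds were mm9 and mm10, unlike in the headers, which coordinates here follow. More genes had 2 reads (2067 untreated, 2266 after Adriamycin) than 1 read (1629 and 1719). Symbols matched 52081 of 55414 identifiers.

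Library sizes were scaled with TMM factors of 0.951 and 1.05 (edgeR 4.0.16, R 4.3.3). Before ratios were taken, 0.5 read, in proportion to library size, was added, with exact Clopper-Pearson intervals (Python 3.11.15, scipy 1.17.1), tested on simulated data. With 1 library per condition nothing was tested, and genes were called by a ratio of at least 2-fold. Alternatives were other scalings, filters, pseudocounts and folds, and another gene length that was chosen after seeing the data. The members and lists were chosen with earlier results of these data known. The text names the 9 members, list genes past 2-fold, overlapping and neighbouring genes, and the 3 genes most like Pnp2 and Rrm2b. Some genes that this rule names are left out of the text. Paics, Gm49342 and other overlapping genes enter by that rule. Ccne1, E2f1, Fen1, Upp1, Tk2, Fn1, Col1a1, Col1a2, Col5a1, Thy1, Bgn, Col6a1 and Fbln2 were named after their values were seen.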

Additional observations from a re-analysis of the deposited data

How the results depend on the processing

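The direction of all 9 members was kept with DESeq2 size factors, upper-quartile factors and a pseudocount of 2 reads, and with total counts for 8, Tyms being the exception. The scalings moved the median of all genes from -0.03 to 0.12 (total counts) and -0.15 (upper-quartile factors), and the members' median from -0.23 to -0.0821 and -0.349. With upper-quartile factors 2 members were lower, Pnp being the second. A mean of at least 5 CPM removed Pnp2 and left 0 lower members. At 1.5-fold, 1 member was higher and 2 were lower, with 3815 higher and 2805 lower among all genes and 23 and 22 among the pathway genes. With no filter on low counts 8514 genes were higher and 4292 lower, and 22 pathway genes were higher. With at least 5 CPM 1417 genes were higher, and 547 were lower where the interval on counts divided by 2 had to pass 2-fold. No paired analysis was possible because each condition has 1 library. Depth limits Pnp2 most, with 4 reads after Adriamycin.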

Other observations

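Measured genes next to the members give the local setting. Pip4p1 lies 226 bases from Pnp, on the minus strand, and had 4466 and 2999 reads (log2 ratio -0.60), and Rnase4, 126 kb after Pnp, had 214 and 447 (1.03). Grhl2, a neighbour of Rrm2b (0.68), had 1403 and 622 reads (-1.20). Beside Samhd1 (-0.23), Soga1 had 1453 and 6163 reads (2.06) and Rbl1 1367 and 1387 (-0.01). Rrm1 (-0.34) lies 4376 bases from Stim1 (0.75), with Trim21 (0.81) on its other side, and Rrm2 (0.52) stands between Klf11 (-0.49) and Mboat2 (-0.53). Dck (0.36) has Mob1b (0.57) at 776 bases and Mkrn1-ps1 (-0.84) beyond. Tk1 (-0.38) has Syngr2 (-0.16) and Birc5 (-0.54), and Tyms (-0.07) has Dnajb6 (-0.998) and Gm4961 (1.17).

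Among 2192 measured genes within 2-fold of the mean level of Pnp2, after leaving out predicted and unnamed genes, those with the nearest log2 ratio over these 2 libraries were Vax2os (-4.22, 173 and 9 reads), Ankrd34a (-3.79, 399 and 29) and Ldoc1 (-3.52, 129 and 11). The counting interval of Pnp2 (-8.92 to -3.97) includes the ratio of Vax2os. For Rrm2b, at 0.68, Mef2a and Ccdc157 were among the nearest of 3117 genes chosen in the same way, both at 0.68 as well.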
